A study of Mus musculus with 2 samples.

Results

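Cluster 34 is a small cluster of cells that the deposited cell table names macrophages. Its members here were the table entries with that name and cluster number whose barcode held at least 1000 UMIs (unique molecular identifiers, each a count of 1 captured RNA molecule) of mouse genes in the library analysed. This gave 114 cells, of which 1 was left out in the checks on hashtag and barcode, leaving 113 of 4104 macrophages and of 8716 cells in all. The other 3991 macrophages fell into 23 other clusters and are called the other macrophages below. The cell table holds 266 cluster 34 macrophages in total, and the 152 outside this library were used for shares only.

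Macrophages of tumours arise largely from blood monocytes, clear dying cells and debris, make complement and lipid-transport proteins, and take on different states according to the signals around them. Immediate early genes such as Fos, Jun and Egr1 are switched on within minutes of many stimuli, without new protein synthesis, and many of their transcripts are short-lived. Fc gamma receptors on macrophages bind the constant region of IgG, so that antibodies with different Fc regions can engage these cells differently.

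The cells were CD45+ immune cells sorted from subcutaneous tumours of MC38, a mouse colon carcinoma line, in mice carrying human Fc gamma receptors, and their RNA was read with the 10x Genomics 3' assay. All mice, controls included, bore 2000000 implanted MC38 cells and the human receptors. The treated mice had received 2 injections, 3 days apart, of 100 µg of an antibody with a human IgG1 Fc region, and cells were taken 4 days after treatment. GA-aFuc (1 mouse, 18 cluster 34 cells) is named an agonist of GITR, a receptor of activated T cells, with an enhanced Fc region. GITR/Syn GA-aFuc (1 mouse, 22 cells) is named a non-agonist with an enhanced Fc region. N297A (2 mice, 22 and 19 cells) is named an agonist with a null Fc region. The control mice are named Untreated in the cell table and PBS in the design text (2 mice, 19 and 13 cells). Mouse age, sex and strain background are not given in the sources used here. The design speaks of 3 mice per treatment, and those outside this library were not analysed here. Mice were told apart by their hashtag, an antibody-borne barcode. Each hashtag was taken as 1 mouse, with the treatment that most of its cells carried, and 33 cells of another treatment were left out.

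The 113 cells were as deep as the other macrophages. Their median was 15420 mouse UMIs and 4087 genes per cell, against 15221 UMIs and 4034 genes. Summed per mouse, cluster 34 held 185329 to 344691 UMIs, so 1 UMI was worth 2.90 to 5.40 CPM (counts per 1000000 mouse UMIs) and genes under about 20 CPM rested on few molecules. In the median cell 97.7% of hashtag UMIs were of the top hashtag, against 97.3% in the other macrophages. A second hashtag above 20% was seen in 0 of 113 cells, which allows a share of up to 2.65%.

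The cells carried the markers of their name. C1qa, a chain of complement C1q, averaged 5479.6 ± 399 CPM in cluster 34 and 5574 ± 413 CPM in the other macrophages (SD, n = 6 mice each). Csf1r, the receptor for the main macrophage growth factor, averaged 456 ± 83.0 CPM against 424 ± 30.0 CPM. Apoe, an apolipoprotein that carries lipid out of macrophages, ranged from 8034 to 20653 CPM with a median of 16529 CPM, against 4997 to 9530 CPM with a median of 9115 CPM, and was higher in cluster 34 in each of the 6 mice. In this library free RNA also carried much of these transcripts (9871 CPM of Apoe and 4260.4 CPM of C1qa in barcodes of 10 to 100 UMIs). CD8 T cells, which should lack both, held 408 CPM of Apoe and 172 CPM of C1qa. All 10 genes of the macrophage marker list were detected.

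Markers of lymphoid, stromal and epithelial cells were low in both pools. The summed T cell list gave 10.8 to 29.0 CPM per mouse in cluster 34, against 18.6 to 36.8 CPM. NK cell markers gave 14.6 to 32.4 CPM, against 16.7 to 28.4 CPM, and fibroblast markers gave 8.70 to 27.6 CPM, against 12.8 to 16.6 CPM. Epithelial markers gave 2.90 to 10.8 CPM, against 5.61 to 7.27 CPM, with 6 of their 8 genes at 0 in cluster 34. The endothelial list summed to 176 CPM on average, against 122 CPM, and was higher in 5 of 6 mice and the third highest of 24 clusters, nearly all of it Pecam1 (173 against 117 CPM), while Cldn5 and Tie1 were at 0. The neutrophil list summed to 51.8 CPM, against 37.0 CPM, and was higher in 5 of 6 mice and the second highest of 24 clusters, mostly as Csf3r (45.2 against 34.8 CPM), with Retnlg, G0s2, Mmp8 and Ly6g at 0. The lists of dendritic cells overlapped between the pools and were not low, at 795 to 912 CPM for cDC1, against 731 to 917 CPM, and 1311 to 1946 CPM for pDC, against 1598 to 1904 CPM. Their defining genes were low or absent, with Xcr1 at 5.06 CPM against 8.204 CPM and Siglech at 0 CPM against 0.206 CPM. Their part in the results was not tested. The monocyte list summed to 548 to 1090 CPM, against 784 to 971 CPM, with Hp and Cd177 at 0. Ly6c2, the surface marker of inflammatory monocytes, averaged 89.9 ± 82.4 CPM, against 61.5 ± 19.96 CPM in the other macrophages and 2269.7 CPM in the cells named monocytes.

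The question of the first comparison was what sets these cells apart from the other macrophages of the same mice. For each gene, log2((CPM in cluster 34 + 10)/(CPM in the other macrophages + 10)) was taken in each mouse, and a gene counts as 2-fold apart when all 6 mice passed 2-fold in the same direction. Such a ratio understates the change of low genes. Because the cluster was itself made from the expression of these cells, these values describe it and carry no test. Of 6485 genes with at least 20 CPM in the higher pool, 14 (0.216%) were at least 2-fold higher and 18 (0.278%) at least 2-fold lower in every mouse. Without a limit on size, 674 genes (10.4%) were higher and 874 (13.5%) lower in every mouse. By the same rule, the 18 other clusters with at least 10 cells in each mouse had 0 to 218 genes higher and 3 to 114 lower, so cluster 34 stood apart by a modest number of genes.

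Immediate early transcription factors and a feedback regulator of their signalling were among the higher genes. Egr1, a zinc finger immediate early factor, ranged from 194 to 418 CPM over the 6 mice with a median of 305 CPM, against 64.7 to 105 CPM with a median of 85.0 CPM. Jun, a subunit of the AP-1 transcription factor, ranged from 626 to 1037 CPM with a median of 790.1 CPM, against 244 to 289 CPM with a median of 268 CPM. Dusp1, a phosphatase that switches off MAP kinases, ranged from 793 to 1123 CPM with a median of 971 CPM, against 348 to 418 CPM with a median of 378 CPM. For none of the 3 genes did the mice overlap between the pools. The mean log2 ratios were 1.72 ± 0.39 for Egr1, 1.54 ± 0.24 for Jun and 1.33 ± 0.18 for Dusp1 (SD, n = 6), and cluster 34 was the highest of the 24 macrophage clusters for each.

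Among the 14 were 3 noncoding genes, and they held the largest ratios of all, those of Gm17749 and Gm49662. Gm17749, annotated as a processed transcript, ranged from 91.7 to 194 CPM with a median of 157 CPM, against 19.2 to 28.7 CPM with a median of 21.0 CPM. Gm49662, annotated as a lincRNA, ranged from 115 to 239 CPM with a median of 175 CPM, against 24.1 to 48.7 CPM with a median of 33.1 CPM. Both were highest in cluster 34, at mean log2 ratios of 2.32 ± 0.37 and 2.01 ± 0.46, with cluster 28 next at 97.2 and 72.4 CPM. Neat1, the RNA scaffold of nuclear paraspeckles, averaged 422 ± 100.2 CPM, against 154 ± 27.2 CPM, with cluster 9 higher still at 469 CPM in the pool of mice. After each cell was thinned to 2000 UMIs, 31.2% of 112 cluster 34 cells held a UMI of Gm17749, against 3.47% of 3974 other macrophages and 0.441% of CD8 T cells. At full depth, 77 of the 113 cells held one.

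The remaining higher genes had varied roles. Chka, choline kinase alpha, the first enzyme of phosphatidylcholine synthesis, ranged from 208 to 371 CPM, against 71.4 to 97.9 CPM, with a mean log2 ratio of 1.63 ± 0.20. Ankdd1a, a protein with ankyrin repeats, ranged from 43.2 to 75.4 CPM, against 5.40 to 10.3 CPM, a mean log2 ratio of 2.00 ± 0.25. Kansl1l averaged 247 ± 44.7 CPM against 78.7 ± 10.97 CPM. Hcar2, the receptor for niacin and beta-hydroxybutyrate, was lower in level, at 43.4 ± 5.62 CPM against 11.3 ± 1.63 CPM. Ampd1, an AMP deaminase best known from muscle, averaged 22.9 ± 4.93 CPM against 3.62 ± 1.16 CPM. Lsmem1 averaged 75.9 ± 44.3 CPM against 12.9 ± 4.397 CPM, and Dhx40, an RNA helicase, 150.3 ± 23.2 CPM against 62.4 ± 5.16 CPM. Fap, a cell-surface protease best known from fibroblasts, averaged 87.4 ± 47.8 CPM against 15.3 ± 3.25 CPM. For Fap, 40 of the 150 UMIs came from 1 cell, and 28 of the 113 cells held any.

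Cluster 34 ranked first among the 24 clusters for 11 of the 14 genes. Its neighbours in rank differed by gene: the highest other cluster was 28 for 7 of the 14, 9 for 4 and 10 for 3. Cluster 28 was slightly above cluster 34 for Fap (91.0 against 85.6 CPM in the pools of mice) and Dhx40 (162 against 153 CPM). Just inside the 2-fold limit were Dhx40 and Dusp1, whose mouse nearest to no difference had ratios of 2.00 and 2.02. Just outside were 5033421B08Rik and Mertk, both at 1.94.

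**Figure D1:**
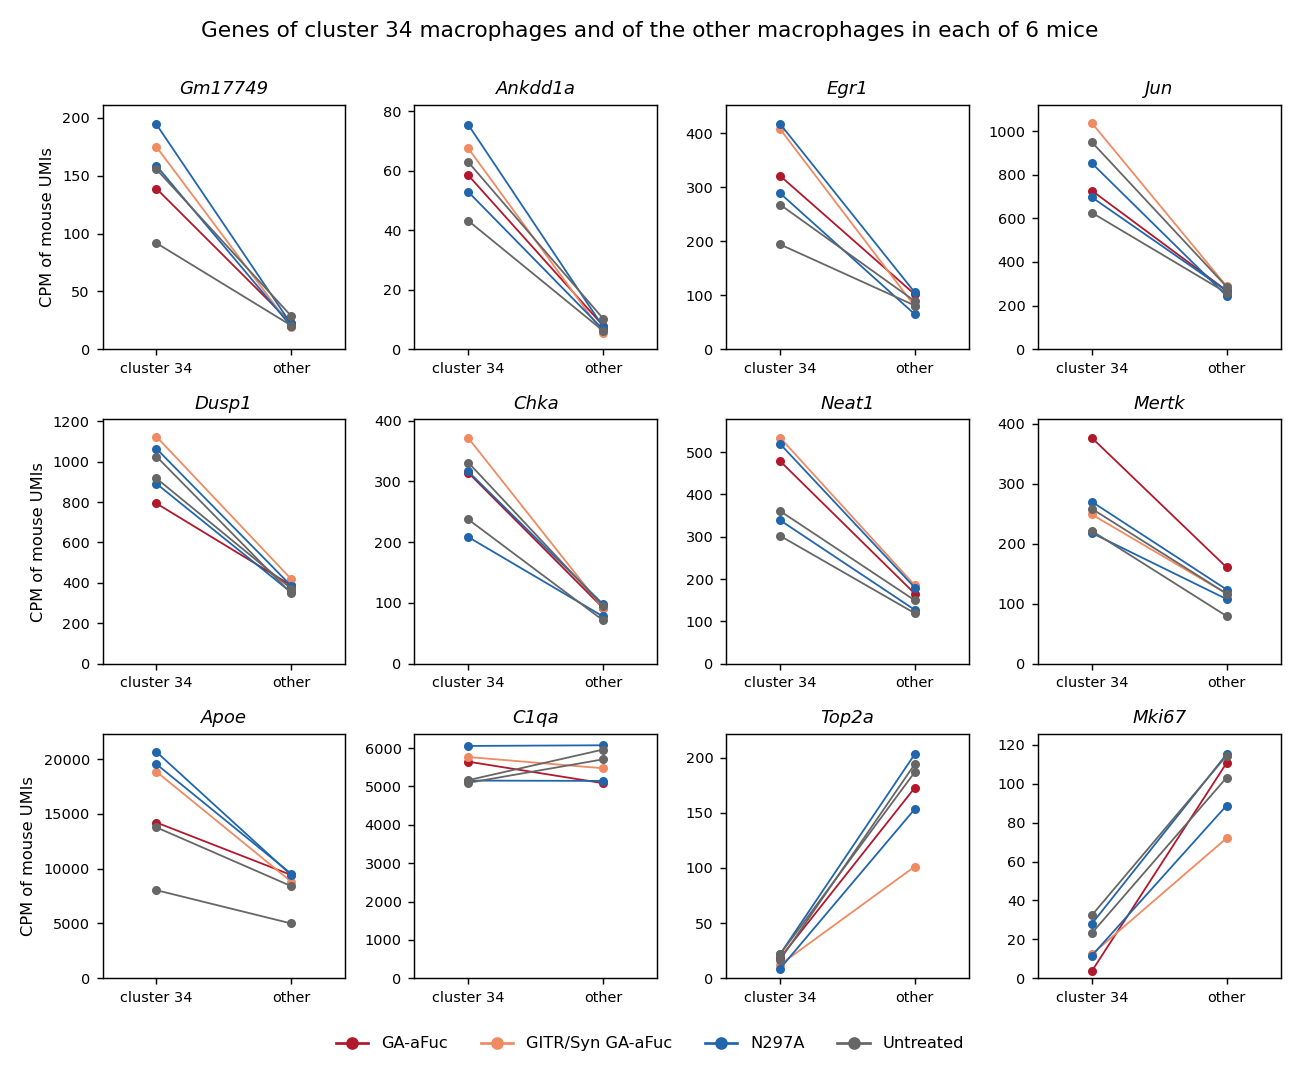
Each panel plots one gene in CPM of mouse UMIs (y axis, from 0) in cluster 34 (left) and in the other macrophages (right), with a line for each of the 6 mice coloured by treatment. Lines of Gm17749, Ankdd1a, Egr1, Jun, Dusp1, Chka, Neat1, Mertk and Apoe run down to the right in all 6 mice, those of C1qa are near level, and those of Top2a and Mki67 run up.

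Of the 18 lower genes, 7 belonged to the list of G2 and M phase genes, 4 to that of histones and chromatin and 0 to that of S phase genes. H1f5, a linker histone, ranged from 3.07 to 18.3 CPM with a median of 6.42 CPM, against 141 to 254 CPM with a median of 198 CPM. Top2a, the topoisomerase that untangles replicated chromosomes, ranged from 8.70 to 21.8 CPM with a median of 17.4 CPM, against 101 to 203 CPM with a median of 179.7 CPM. Mki67, the Ki-67 proliferation antigen, averaged 18.5 ± 11.1 CPM against 101 ± 17.1 CPM. Mean log2 ratios were -3.50 ± 0.47, -2.74 ± 0.28 and -2.04 ± 0.58 for these 3 genes, and the others included Pclaf, Birc5, Cdk1, Cenpf, Kif15, Nusap1, Ube2c, Cdca3 and Cdca8.

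These low levels were shared by most macrophage clusters. The summed G2 and M list of 20 genes stood at 164 CPM in cluster 34, which was the 16th highest of 24 clusters, and the median of the other clusters was 180 CPM. In 6 of the 24 clusters, holding 930 cells, the sum was at least 500 CPM and reached 6417 CPM, while the other 18, cluster 34 included, lay between 110 and 302 CPM. Top2a (23rd highest) and Cdk1 (lowest of 24) ranked low in cluster 34 also beside the clusters with little cycling. Their medians over mice in cluster 34 were 17.4 and 7.42 CPM, so these 2 ranks rested on few molecules.

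**Figure D2:**
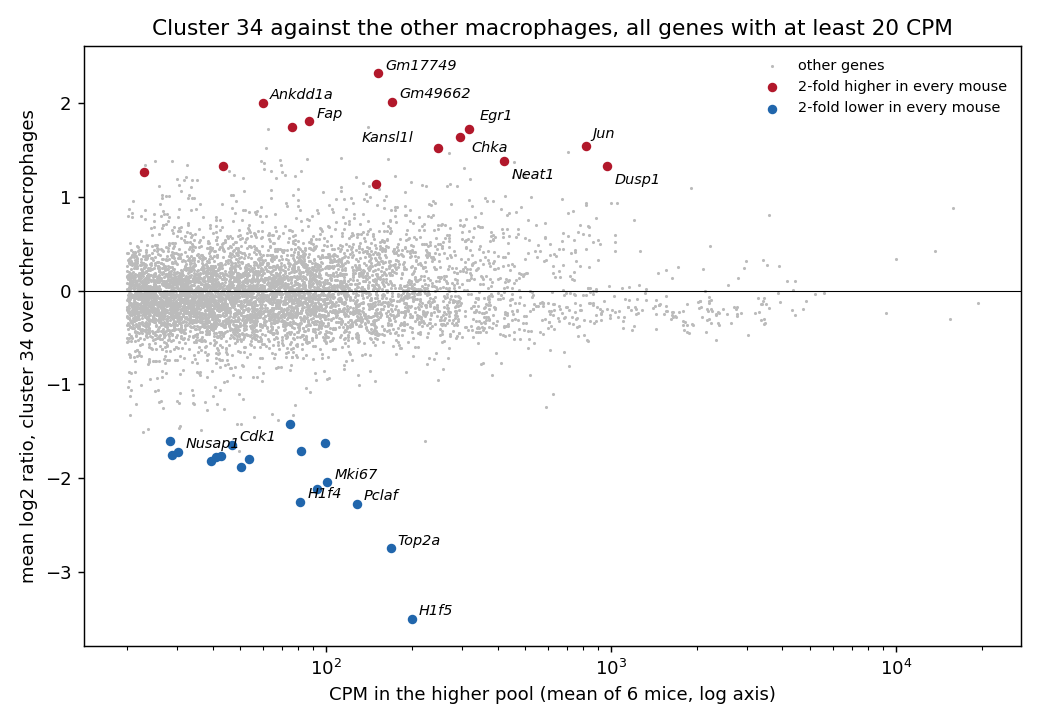
Each point is one of 6485 genes, with its CPM in the higher of the 2 pools (x axis, mean of 6 mice, log axis) and its mean log2 ratio of cluster 34 over the other macrophages (y axis). The 14 genes at least 2-fold higher in every mouse are red, the 18 at least 2-fold lower are blue, and Gm17749 and H1f5 mark the 2 ends.

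Gene lists with known roles described the smaller shifts. The median log2 ratio over all 6485 genes was -0.05, and each list is read beside that value. Counts of members higher or lower in every mouse are read beside the 10.4% and 13.5% of all genes that were so. The list of immediate early and heat shock genes had the largest sum of all 24 clusters, at 8957 CPM in the pool of mice, with cluster 9 close behind at 8779.5 CPM and cluster 10 next at 6887 CPM. Per mouse it came to 7608 to 10567 CPM, against 4416 to 4991 CPM, and the mice did not overlap. Of its 18 members, 3 were 2-fold higher in every mouse, 12 were higher in every mouse at any size and 0 were lower in every mouse, with a median log2 ratio of 0.78. Fos, the AP-1 partner of Jun, averaged 1910 CPM against 886 CPM, and Atf3, a stress-induced repressor, 819 CPM against 413 CPM. Ier3 averaged 361 CPM against 179 CPM and Zfp36, which destabilises inflammatory mRNAs, 511 CPM against 297.1 CPM. Heat shock members were less uniform: Hspa1a was higher in 5 of 6 mice, at 127 ± 55.5 CPM against 46.0 ± 17.4 CPM, while Hsph1 had 30.2 CPM against 31.6 CPM and Hspa1b 27.0 CPM against 21.6 CPM.

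Chemokines that recruit monocytes and neutrophils followed the same direction. In the list of monocyte-derived inflammatory genes, 12 of 15 members reached 20 CPM, 6 were higher in every mouse and 0 lower in every mouse, with a median log2 ratio of 0.71. Cxcl2, a neutrophil chemokine, ranged from 246 to 1037 CPM with a median of 794 CPM, against 130 to 388 CPM with a median of 209 CPM. Ccl3, a chemokine of monocytes and T cells, averaged 321 ± 119 CPM against 129.9 ± 27.8 CPM. The CCR2 ligands Ccl2 and Ccl7 averaged 1047 ± 102 and 1002 ± 345 CPM, against 551 ± 131 and 503 ± 106 CPM. Tnf averaged 124 CPM against 59.3 CPM, and Il1b, at 582 CPM against 624 CPM, was higher in only 2 of 6 mice. The mice of Cxcl2 and Ccl7 overlapped between the pools, and those of Ccl2 and Ccl3 did not. The summed list, at 5411 CPM in the pool of mice, was the third highest of the 24 clusters, and cluster 10 was the highest at 6545 CPM.

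**Figure D3:**
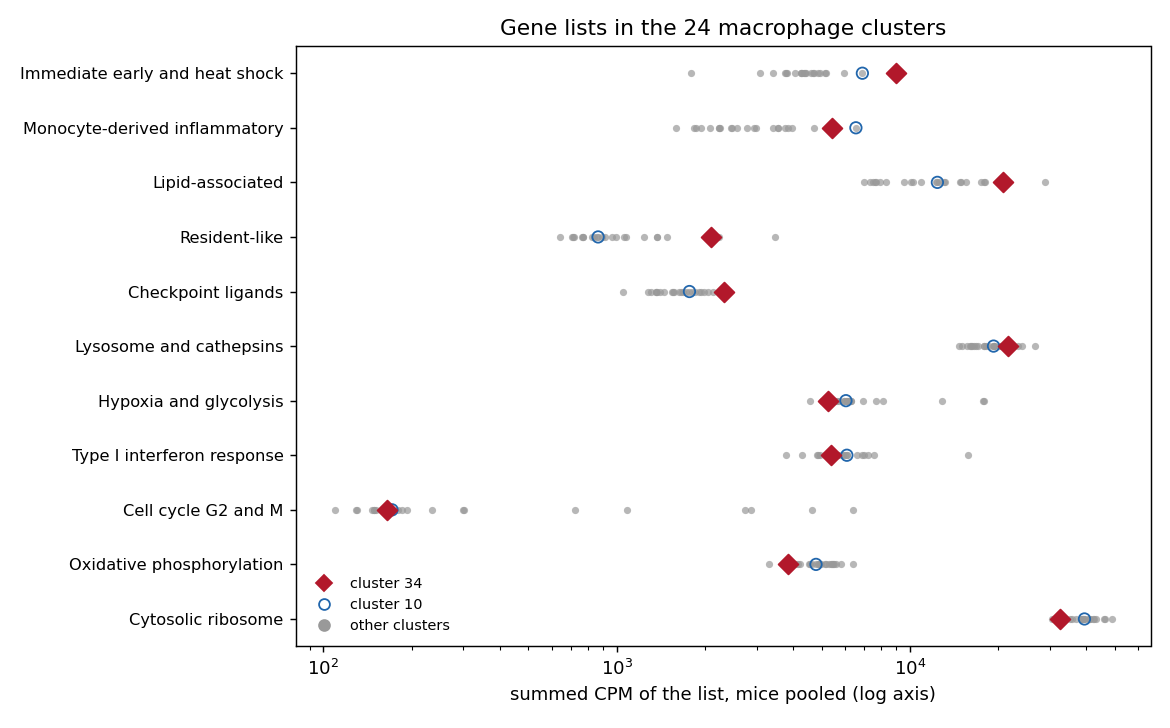
Each row is a gene list and each point a macrophage cluster, placed by the summed CPM of the list with mice pooled (x axis, log axis); red diamonds are cluster 34, blue rings cluster 10 and grey points the other 22 clusters. Cluster 34 is the highest point for immediate early and heat shock genes and for checkpoint ligands, and lies within the range of the other clusters for the other lists.

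Genes of resident-like and lipid-handling macrophages were partly higher. Only 6 of the 15 resident-like members reached 20 CPM, of which 4 were higher in every mouse and 0 lower in every mouse. The summed resident-like list, at 2095 CPM in the pool of mice, was the 3rd highest of the 24 clusters, and cluster 12 was the highest at 3481 CPM. Mrc1, the mannose receptor, ranged from 113 to 348 CPM with a median of 302 CPM, against 50.2 to 225 CPM with a median of 114 CPM, and was higher in each mouse although the pools overlapped across mice. Selenop, a selenium carrier, averaged 431 ± 82.9 CPM against 242 ± 43.8 CPM, and Pf4, a chemokine, 585 ± 269 CPM against 385 ± 161 CPM. Defining genes of long-lived resident macrophages were at the floor, with Lyve1, Cd163, Timd4 and Vsig4 under 1 CPM in both pools. Of the lipid-associated list, 14 of 15 members reached 20 CPM, 5 were higher in every mouse and 0 were lower in every mouse. By mean ratio the list was split evenly, with 7 members above 0 and 7 below, and its median log2 ratio was 0.06. The 5 members were Apoe, Trem2, a lipid-sensing receptor (417 against 324 CPM), Abca1, a cholesterol exporter (438 ± 129.7 against 237 ± 55.5 CPM), Plin2, a lipid droplet coat (369.8 against 268 CPM), and Ctsd, a lysosomal protease (837 ± 228 against 548 ± 121 CPM). Spp1, osteopontin, went the other way at 38.8 ± 26.2 CPM against 88.2 ± 39.9 CPM, and was lower in 5 of 6 mice. The summed lipid-associated list, at 20718 CPM in the pool of mice, was the 2nd highest of the 24 clusters, and cluster 12 was the highest at 28932 CPM. Most of the sum in cluster 34 was Apoe, at a median of 16529 CPM against 9115 CPM in the other macrophages, so this rank largely reflects 1 gene.

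Mertk and 10 of 16 lysosomal genes were higher as well. Of 10 phagocytosis receptors with at least 20 CPM, 2, Mertk and Sirpa, were higher in every mouse and 0 lower in every mouse, with a median log2 ratio of 0.12. Over all genes 10.4% were higher and 13.5% lower in every mouse, so these small counts do not set the list apart. Mertk, a receptor that binds dying cells through bridging ligands, ranged from 218 to 376 CPM with a median of 253 CPM, against 79.4 to 161 CPM with a median of 117 CPM. The mice did not overlap, the mean log2 ratio was 1.11 ± 0.15, and cluster 34 was the highest of 24 clusters, ahead of cluster 12 (266 and 251 CPM in the pools of mice). Its relative Axl was close in the 2 pools (206 against 191 CPM). Of 16 lysosomal genes with at least 20 CPM, 10 were higher in every mouse and 0 lower in every mouse. The largest ratios were those of Ctsd, the protease Ctsl (440 ± 66.1 against 296 ± 71.9 CPM), the membrane protein Lamp2 (518 ± 97.5 against 349.7 ± 11.5 CPM) and the protease Ctsb (2235 ± 242 against 1606 ± 181 CPM). The summed lysosomal list, at 21540 CPM in the pool of mice, was the 5th highest of the 24 clusters, and cluster 12 was the highest at 26743 CPM.

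The list of checkpoint ligands and related genes had the highest sum of the 24 clusters, at 2316 CPM in the pool of mice, with cluster 2 next at 2133 CPM. It came to 1903 to 2642 CPM per mouse in cluster 34, against 1416 to 1889 CPM, with 4 of 9 members with at least 20 CPM higher in every mouse. Cd86, the ligand of CD28 and CTLA-4, ranged from 641 to 1128 CPM with a median of 908 CPM, against 431 to 596 CPM with a median of 503 CPM. Vsir, which encodes VISTA, averaged 232 ± 27.6 CPM against 162 ± 16.3 CPM, and Cd274, which encodes PD-L1, 318 ± 112 CPM against 195 ± 36.2 CPM. The fourth was Sirpa, the receptor for CD47, at 385 ± 41.3 CPM against 263 ± 30.4 CPM. Tnfsf18, the ligand of GITR, was at 0.609 CPM against 0.293 CPM and so was not measurable at this depth. Class II antigen presentation genes were higher by a small amount, with a median log2 ratio of 0.28. Of 7 members with at least 20 CPM, 6 were above 0 by mean ratio, but 1 was higher in every mouse. Their sum was 16954 to 25121 CPM per mouse, against 14113 to 24411 CPM, and higher in 5 of 6 mice. With mice pooled it was the 8th highest of 24 clusters. H2-Eb1 stood at 3535 ± 489 CPM against 2937 ± 603 CPM, and was higher in 5 of 6 mice.

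Several transcription factors of myeloid cells were higher. Of 18 members with at least 20 CPM, 8 were higher in every mouse and 0 lower in every mouse, with a median log2 ratio of 0.41. Klf6 ranged from 513 to 782 CPM with a median of 703 CPM, against 287 to 384 CPM with a median of 342 CPM. Runx1, a factor of blood cell development, ranged from 473 to 896 CPM with a median of 739 CPM, against 353 to 419 CPM with a median of 382 CPM. For both the mice did not overlap. Mitf and its relatives drive lysosomal genes, and Mitf averaged 120.0 ± 39.5 CPM against 66.7 ± 17.7 CPM. Klf2 averaged 222 ± 66.3 CPM against 129 ± 23.4 CPM. Maf, Klf4 and Zeb2 were also higher in every mouse, at mean log2 ratios of 0.39 to 0.55.

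Interferon-related genes split. Of 25 type I interferon response genes with at least 20 CPM, 8 were lower in every mouse and 1, Stat2, was higher in every mouse, with a median log2 ratio of -0.24. The summed list stood at 5403 CPM in cluster 34, 17th highest of 24 clusters, near the median of the other clusters, 5709 CPM, while cluster 3 reached 15816 CPM. Ifit1, which binds foreign RNA, ranged from 27.6 to 62.2 CPM with a median of 51.7 CPM, against 84.0 to 128 CPM with a median of 99.8 CPM. Isg20, an exonuclease, averaged 23.0 ± 12.3 CPM against 46.0 ± 6.62 CPM. Of 15 genes of the interferon-gamma list, 4 were higher in every mouse: Iigp1, an immunity-related GTPase (819 ± 397 against 398 ± 77.4 CPM), Ciita, the master regulator of class II genes (79.8 ± 17.5 against 38.7 ± 12.5 CPM), Irf1 (385 against 251 CPM) and Cd274. Cxcl10, a T cell chemokine, was lower in every mouse at 332 ± 171 CPM against 626 ± 78.9 CPM.

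Energy metabolism and protein synthesis genes were lower by small amounts. Of 13 genes of oxidative phosphorylation, 11 were lower in every mouse and 0 higher in every mouse, with a median log2 ratio of -0.35. Cycs, cytochrome c, averaged 134 ± 32.9 CPM against 206 ± 12.8 CPM. Of 16 ribosomal protein genes, 9 were lower in every mouse (median -0.22), among them Rpsa at 1363 ± 131 CPM against 1849 ± 180 CPM. Of 20 hypoxia and glycolysis genes with at least 20 CPM, 8 were lower in every mouse (median -0.42), and Eno1, enolase, averaged 89.6 ± 14.5 CPM against 136 ± 18.6 CPM. Cluster 34 had the second lowest sum of the 24 clusters for oxidative phosphorylation and for ribosomal proteins, and the third lowest for hypoxia and glycolysis.

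The kinds of RNA moved together with these shifts. Noncoding genes took 2.77% to 3.03% of mouse UMIs in cluster 34, against 2.14% to 2.36%, and the mice did not overlap. Malat1, an abundant nuclear lncRNA, averaged 13697 ± 1465 CPM against 10187 ± 869 CPM. Without Malat1 the share was 1.43% to 1.61%, against 1.15% to 1.24%. By this share cluster 34 was the highest of the 24 clusters at 1.546%, with cluster 28 close behind at 1.523%. Lncpint, a long noncoding RNA chosen after its values were seen, averaged 501 ± 141 CPM against 206 ± 31.9 CPM. Ribosomal protein genes took a median of 13.5% of a cell's UMIs, against 15.4%, and mitochondrial genes 1.77%, against 1.94%.

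Gene length in the annotation moved the same way. The 674 genes higher in every mouse had a median annotated span of 53.6 kb, the 874 lower in every mouse 12.5 kb, and all 6485 genes 27.1 kb. Noncoding genes were 4.95% of the first group, 0.458% of the second and 1.71% of all. The 14 genes 2-fold higher had a median span of 27.5 kb. The part of RNA class and gene span in the differences of single genes was not tested.

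**Figure D4:**
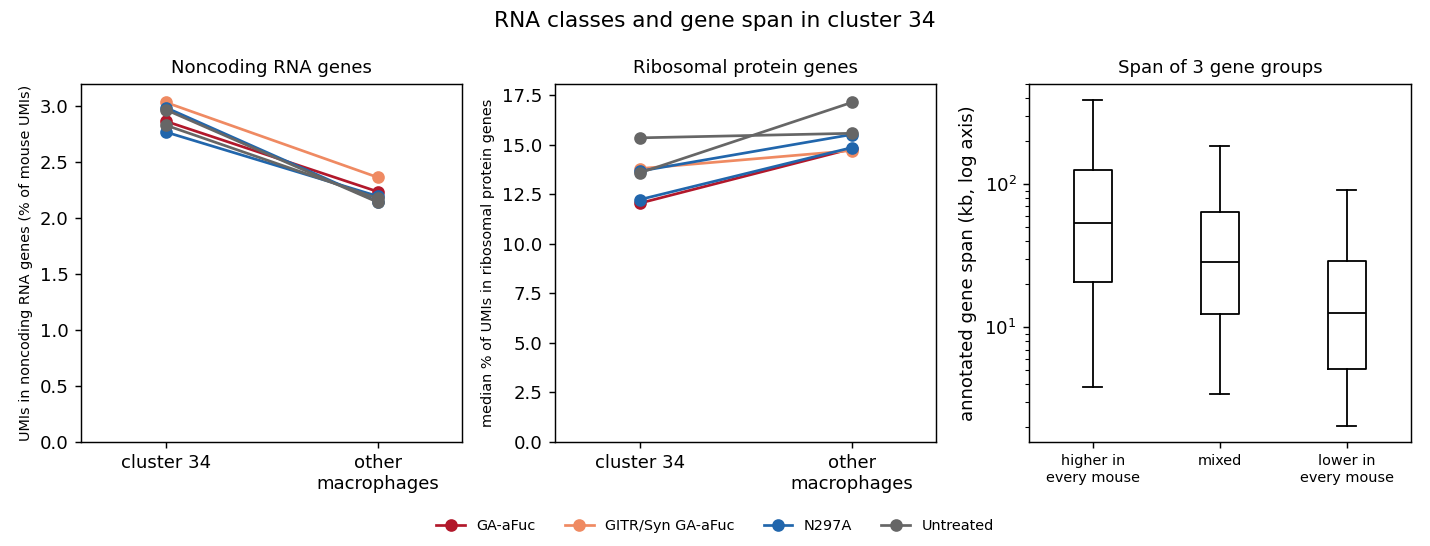
Left and middle, the share of mouse UMIs in noncoding RNA genes and the median share in ribosomal protein genes (y axes in percent, from 0) for cluster 34 and the other macrophages, with a line per mouse. Right, the annotated span of genes higher in every mouse, of mixed direction and lower in every mouse (log axis), where boxes are quartiles, lines medians and whiskers the 5th and 95th percentiles: medians of 53.6 and 12.5 kb stand at the 2 ends.

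Among the other clusters, cluster 10 was most like cluster 34. Over the 6485 genes, the log2 values of the 2 clusters had a Pearson correlation of 0.968 across genes, which share library and depth and are not independent, and 76 genes were 2-fold apart with mice pooled. Of 6364 genes with at least 20 CPM in either cluster, 0 were 2-fold higher and 0 were 2-fold lower in every mouse, so the 14 genes that set cluster 34 apart from all other macrophages did not pass that rule against cluster 10. At any size, 564 genes (8.86%) were higher and 456 (7.17%) lower than in cluster 10 in every mouse. The 5 largest mean log2 ratios of these were 1.95 for Ccl8, a chemokine of tissue macrophages (304 ± 262 against 65.5 ± 51.1 CPM), 1.62 for Majin, 1.55 for Eldr, 1.54 for Cped1 and 1.52 for Mrc1 (272 ± 93.0 against 99.2 ± 70.3 CPM). Those on the lower side included genes of low level such as Klrb1b, at 13.1 ± 7.54 against 44.3 ± 14.1 CPM, and Cd300e, an activating receptor of monocytes, at 15.02 ± 13.6 against 42.9 ± 15.1 CPM. Stap1, also on the lower side, had a higher level, at 72.3 ± 16.1 against 150.3 ± 52.3 CPM.

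Cluster 12 was next by the root mean square difference of log2 values (0.389, with cluster 6 at 0.391), and was set apart more clearly. By correlation cluster 6 came next, at 0.959 against 0.958 for cluster 12. Of 6413 genes, 14 were at least 2-fold higher and 6 at least 2-fold lower in cluster 34 than in cluster 12 in every mouse. Higher in cluster 34 were Jun, Hcar2, Gm17749, Chka and Neat1 as well as the class II gene H2-Eb1 (3535 ± 489 against 928 ± 395 CPM). Lower were Spp1 (38.8 ± 26.2 against 304 ± 172 CPM), Gpnmb, a lysosomal glycoprotein of lipid-laden macrophages (6.17 ± 6.94 against 76.9 ± 29.6 CPM), Folr2, Pf4, Cd63 and Ninj1.

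RNA of the human Fc gamma receptors, which Fc regions of IgG can bind, was present, while N297A is named as having a null Fc region. FCGR2A ranged from 1019 to 1487 CPM with a median of 1300.2 CPM, against 876 to 1276 CPM with a median of 1096 CPM, and was higher in each of 6 mice. FCGR3A averaged 323 ± 74.6 CPM, against 236 ± 18.8 CPM, and was higher in 5 of 6 mice. FCGR1A, the high-affinity receptor, averaged 190.0 ± 70.5 CPM against 223 ± 56.2 CPM, and the inhibitory FCGR2B 309 ± 104 CPM against 345 ± 78.0 CPM. FCGR3B averaged 4077 ± 611 CPM against 3598 ± 271 CPM, higher in 5 of 6 mice. FCGR3A shares long stretches of sequence with FCGR3B and FCGR2A with FCGR2C, so reads may be split between them. Fcer1g, the signalling chain shared by activating receptors, was lower in each mouse at 3685 ± 477 CPM against 4412 ± 449 CPM.

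The second comparison asked whether treatment changed how many macrophages were cluster 34 cells. Cluster 34 made up 2.37% of macrophages in the GA-aFuc mouse (95% Clopper-Pearson interval 1.41% to 3.71%) and 3.09% in the GITR/Syn GA-aFuc mouse (1.94% to 4.63%). It made up 3.59% (2.26% to 5.38%) and 2.72% (1.65% to 4.22%) in the N297A mice, and 3.02% (1.83% to 4.68%) and 1.88% (1.01% to 3.20%) in the Untreated mice. The intervals cover counting error only, and all 6 overlapped. The N297A mean was 0.703 points above the Untreated mean (exact two-sided permutation test, p = 0.667, where 2 against 2 mice cannot go below 0.333). The mean of the Fc-enhanced antibodies, GA-aFuc and GITR/Syn GA-aFuc, differed from the other 4 mice by -0.0785 points (exact two-sided permutation p = 0.933, where the design cannot go below 0.0667). The sign of this last difference changed when all annotated cells were the denominator (0.189 points) or when GA-aFuc 1 (0.282 points) or N297A 1 (0.183 points) was left out. Among table entries outside this library the shares were 3.40% with GA-aFuc, 2.48% with GITR/Syn GA-aFuc, 1.65% with N297A and 2.55% in Untreated, so N297A was there the lowest and here the highest.

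The third comparison asked which genes changed with treatment within cluster 34. Counts of each mouse were tested with edgeR's quasi-likelihood test over 6224 genes with Benjamini-Hochberg adjustment, and the threshold was an adjusted p of 0.05. With N297A 2 genes rose (0.0321% of those tested), and with GA-aFuc, with GITR/Syn GA-aFuc and with the Fc-enhanced pair together 1 gene each rose (0.0161%). By edgeR 0 genes fell in any of the 4 comparisons, as also by DESeq2 and limma-voom, while 284, 272, 270 and 288 genes in either direction had an unadjusted p under 0.05 in that order. There was 1 mouse for each Fc-enhanced antibody, whose spread was taken from the groups of 2, and the Untreated mice served in every comparison. On simulated counts for N297A over 6224 genes, 16% of genes changed 2-fold and 64% of genes changed 4-fold were found, so most 2-fold changes were out of reach. Each simulated gene took the spread typical of its level, without single cells that hold most of its UMIs, so the real shares may differ.

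Counts of calls turned on single mice, and some of the fits with a mouse left out also called genes that fell. The 2 genes of N297A became 12 without N297A 1, 19 without N297A 2, 16 without Untreated 1 and 6 without Untreated 2. The single gene of GA-aFuc became 16, 14, 23 and 3 without these mice in that order. That of GITR/Syn GA-aFuc became 8, 9, 13 and 13, and 2 without GA-aFuc 1, and that of the Fc-enhanced pair became 18, 5, 18 and 9. Leaving out an N297A or Untreated mouse left 1 residual degree of freedom.

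Ccl8 was the gene that rose in all 4 comparisons. It had 391 CPM in the GA-aFuc mouse, 752 CPM in the GITR/Syn GA-aFuc mouse, 194 and 367 CPM in the N297A mice, and 56.3 and 64.7 CPM in the Untreated mice. The 4 antibody-treated mice were all above the 2 Untreated mice. In edgeR's quasi-likelihood test the log2 changes against Untreated were 2.69 ± 0.40 for GA-aFuc (SE, adjusted p = 0.00972), 3.69 ± 0.38 for GITR/Syn GA-aFuc (adjusted p = 3.34e-05) and 2.24 ± 0.36 for N297A (adjusted p = 0.0164). The other macrophages had 67.6, 56.6, 166, 113, 77.8 and 41.0 CPM in the same order of mice.

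A few cells carried Ccl8. In the GA-aFuc mouse 88 of its 107 UMIs came from 1 cell, in the GITR/Syn GA-aFuc mouse 117 of 245, and in the N297A mice 49 of 67 and 62 of 118. It was seen in 7, 9, 9 and 11 cells of these mice, and in 5 and 3 cells of the Untreated mice. With the top cell of each gene in each mouse left out, only GITR/Syn GA-aFuc stayed past the threshold (edgeR adjusted p = 0.00577). The adjusted p was then 0.3 for N297A, 0.975 for GA-aFuc and 0.426 for the Fc-enhanced pair.

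Antxr2, a receptor for anthrax toxin that binds collagen VI, rose with N297A. It had 343 CPM in the GA-aFuc mouse, 408 CPM in the GITR/Syn GA-aFuc mouse, 479 and 323 CPM in the N297A mice, and 122 and 119 CPM in the Untreated mice. Again all 4 treated mice lay above both Untreated mice, which differed from each other by little. The top cell held 16 of 94 UMIs in the GA-aFuc mouse and 62 of 133 in the GITR/Syn GA-aFuc mouse. It held 48 of 165 and 36 of 104 in the N297A mice, and 9 of 37 and 11 of 22 in the Untreated mice. Antxr2 was seen in 14, 15, 21, 15, 14 and 7 cells in the same order of mice. The log2 change was 1.74 ± 0.29 for N297A (edgeR adjusted p = 0.0164), while GA-aFuc and GITR/Syn GA-aFuc gave 1.499 ± 0.34 and 1.80 ± 0.33 (adjusted p = 0.261 and 0.0653). With DESeq2 the N297A change had an adjusted p of 0.103 and did not pass. In the other macrophages Antxr2 had 361, 364, 503 and 291 CPM in the 4 treated mice and 355 and 316 CPM in the Untreated mice, so it was the Untreated cluster 34 cells that stood low.

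**Figure D5:**
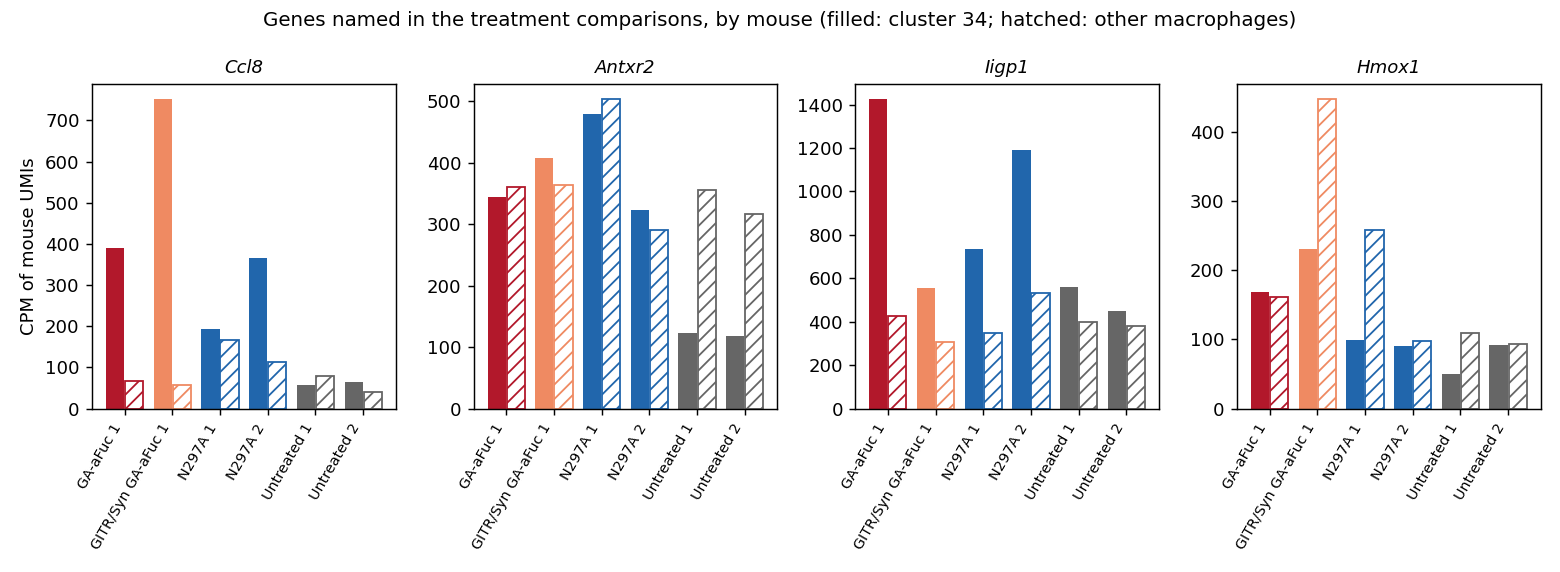
Bars give the CPM of 4 genes (y axes, from 0) in each of the 6 mice, filled for cluster 34 and hatched for the other macrophages, with antibody-treated mice left of Untreated mice. Ccl8 and Antxr2 in cluster 34 are higher in all 4 treated mice than in both Untreated mice, Iigp1 is highest in GA-aFuc 1 at 1425 CPM, and Hmox1 is highest in the other macrophages of GITR/Syn GA-aFuc 1 at 447 CPM.

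The genes with the next smallest p did not pass, and their values are given as such. Iigp1 had 1425 CPM in the GA-aFuc mouse against 559 and 448 CPM in the Untreated mice (edgeR adjusted p = 0.117), with 737 and 1191 CPM in the N297A mice. Hmox1, heme oxygenase, had 168 CPM in the GA-aFuc mouse and 230.2 CPM in the GITR/Syn GA-aFuc mouse, against 98.6 and 90.2 CPM in the N297A mice and 49.6 and 91.7 CPM in the Untreated mice (edgeR adjusted p = 0.281 for the Fc-enhanced pair). Pitpnc1, a phospholipid transfer protein, had 406 and 358 CPM with N297A against 159 and 156 CPM in Untreated (edgeR adjusted p = 0.142). Ccl7 had 728 and 588 CPM with N297A against 1148 and 1565 CPM in Untreated (edgeR adjusted p = 0.142). Nr4a2, an orphan nuclear receptor, had 296 and 146 CPM against 79.4 and 70.1 CPM (edgeR adjusted p = 0.386). The 14 genes that marked the cluster included 0 past the threshold by edgeR in any of the 4 comparisons, and 1, 0, 4 and 1 with an unadjusted p under 0.05 for N297A, GA-aFuc, GITR/Syn GA-aFuc and the Fc-enhanced pair. Their median log2 changes were 0.06, 0.12, 0.40 and 0.14, beside medians of 0.00, -0.03, -0.02 and -0.03 over all genes. Of the 18 immediate early and heat shock genes, 0 passed by edgeR in any comparison, and 5, 2, 6 and 1 had an unadjusted p under 0.05. Over all 6224 genes the share with an unadjusted edgeR p under 0.05 was 4.56%, 4.37%, 4.34% and 4.63% in the same order. Members of a list are measured in the same mice and are not independent.

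The last comparison tested whether cluster 34 changed with treatment differently from the other macrophages of the same mice. In 1 edgeR model of 12 sums with the mouse as a block, over 14344 genes, the difference passed for 5 genes with N297A (0.0349% of those tested; 3 higher, 0.0209%, and 2 lower, 0.0139%). It passed for 6 genes with GA-aFuc (0.0418%; 4 higher, 0.0279%, and 2 lower, 0.0139%). It passed for 4 genes with GITR/Syn GA-aFuc (0.0279%) and 2 with the Fc-enhanced pair (0.0139%), all higher. Against Untreated, Ccl8 changed more in cluster 34 by 2.60 ± 0.39 on the log2 scale with GA-aFuc (SE, edgeR adjusted p = 3.52e-07) and by 3.82 ± 0.37 with GITR/Syn GA-aFuc (edgeR adjusted p = 9.89e-21). Antxr2 changed more by 1.53 ± 0.29 with N297A (edgeR adjusted p = 0.000517) and by 1.70 ± 0.34 with GITR/Syn GA-aFuc (edgeR adjusted p = 0.00316). These p-values depended on how the spread was estimated from 2 residual degrees of freedom. With limma-voom 0 genes passed in each of the 4 differences (717, 738, 731 and 691 at an unadjusted p under 0.05 for N297A, GA-aFuc, GITR/Syn GA-aFuc and the Fc-enhanced pair), and with DESeq2 0, 0, 1 and 1 passed. Without Untreated 1 the 5, 6, 4 and 2 genes became 13, 12, 8 and 9. Without N297A 1 they were 4, 3, 3 and 2, and without N297A 2 they were 1, 3, 2 and 2. Without Untreated 2 they were 7, 5, 5 and 3.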

How the data were processed

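The authors deposited a matrix of raw UMI counts per gene and barcode, for which the submitters' processing notes name Cell Ranger 9.0.0 and the builds GRCh38 and GRCm39, and a table of treatment, cell type and cluster per cell. No source used here says how cells were filtered, demultiplexed and clustered. The members, gene lists and tests here were chosen with earlier results of these data known.

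Entries with at least 1000 mouse UMIs were kept (8767), less 33 whose top hashtag belonged to a different treatment and 18 whose barcode came up more than once. Each of the 6 hashtags was taken as 1 mouse, numbered in hashtag order within a treatment, so numbers pair no mice. The cluster 34 sums held 185329 to 344691 UMIs per mouse. No doublet caller was run, and doublets within a mouse would not show. Counts were summed per mouse and scaled to CPM of mouse genes. Log2 ratios used a pseudocount of 10 CPM and genes with at least 20 CPM. Tests used edgeR 4.0.16 (R 4.3.3, TMM, filterByExpr, robust quasi-likelihood, Benjamini-Hochberg, 2 residual degrees of freedom), with DESeq2 1.42.0 and limma-voom (limma 3.58.1) as alternatives, and shares an exact permutation test. The edgeR, DESeq2 and limma-voom p-values rest on the spread between the 2 N297A mice and between the 2 Untreated mice, with information shared across genes. The Fc-enhanced antibodies, with 1 mouse each, add nothing to that spread. Scripts were tested on simulated data; for the difference between cluster 34 and the other macrophages (14344 genes), 4% of 2-fold and 35% of 4-fold changes were found.

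Named genes were up to 15 per direction by mean log2 ratio, up to 4 members per list by size of the ratio, and in the treatment tests genes past the threshold or the 5 smallest p-values. The report prints part of these, and a few other list members, such as Fos, Atf3, Tnf and Axl, were named after their values were seen. Gene types and spans come from GENCODE M21 of the GRCm38 build, matched by gene identifier for 99.5% of the 6485 genes, so no positions are given. Free RNA was taken from 163454 barcodes of 10 to 100 UMIs.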

Additional observations from a re-analysis of the deposited data

Results flagged for a closer look

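Of 35 genes looked at in the 6 mice, at both ends, 2 had a mouse set apart from the others, where chance alone sets apart about 1 in 20 groups. The log2 ratio of Ampd1 was 1.75 in Untreated 2 and at most 1.299 in the other mice. That of Cdca3 was -1.03 in GA-aFuc 1 and at most -1.73 in the other mice.

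The differences between cluster 34 and the other macrophages in their change with treatment that passed edgeR's test follow. All are log2 values of the change in cluster 34 minus that in the other macrophages. With N297A they were 1.55 for Nr4a2, 1.53 for Antxr2, 1.49 for Eprs, -2.23 for Fabp5 and -1.45 for Alcam. Fabp5, a fatty acid carrier, had 60.9 and 24.9 CPM in cluster 34 with N297A against 159 and 86.3 CPM in Untreated, and 189 and 64.5 CPM against 107 and 47.0 CPM in the other macrophages.

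With GA-aFuc they were 2.60 for Ccl8, 1.98 for Negr1, 1.80 for Serpina3g, 1.401 for Iigp1, -2.74 for Slfn4 and -2.43 for S100a4. In that mouse 1 cell held 34 of the 55 UMIs of Negr1 and 46 of the 70 UMIs of Serpina3g. Iigp1 was spread over 14 of the mouse's 18 cells.

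With GITR/Syn GA-aFuc they were 11.1 for Sox5, 10.9997 for Fgf13, 3.82 for Ccl8 and 1.70 for Antxr2. The values of Sox5 and Fgf13 depend on the prior count and are no measure of size, since both were at 0 in the Untreated cluster 34 cells, and the 11 UMIs of Sox5 came from 1 cell and 10 of the 12 UMIs of Fgf13 from 1 cell. With the Fc-enhanced pair they were 2.68 for Ccl8 and 1.22 for Grap2. None of these passed with limma-voom, where the adjusted p was 0.883 to 0.998.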

How the results depend on the processing

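The log2 ratios of the 151 named genes kept their sign wherever it was called, with 1893 of 1963 values within 1 SD of the reported one, 70 outside it and 0 reversed. The 30 named genes that were 2-fold apart in every mouse kept their sign in 390 of 390 values. They were chosen for that sign in these same mice, so most alternatives could not change it and the count is no support. Counts of such genes moved more. The 14 higher genes became 29 with a pseudocount of 1 CPM, 9 at a minimum of 100 CPM, 8 with TMM-scaled CPM, which moved the median of all genes to -0.16, and 6 with cells thinned to 2000 UMIs. The 18 lower genes became 28 with 1 CPM, 4 at 100 CPM and 11 with the mean of cells' own CPM. Leaving out a mouse gave 14 to 19 higher and 18 to 21 lower genes, but the rule then asked for fewer mice, so these counts could hardly fall.

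Genes past the threshold for N297A (2) became 1 with DESeq2, 11 with no filter on low counts and 1 without the top 5% of cells by UMIs. Of the 11, 3 fell, and without the top cell of each gene 1 of 2 fell. Those for GA-aFuc (1) became 2 with limma-voom, 7 with no filter, 5 without the top 5% of cells and 0 without the top cell of each gene (242 at an unadjusted p under 0.05). Those for GITR/Syn GA-aFuc (1) became 2, 6, 4 and 2 in the same order. Those for the Fc-enhanced pair (1) became 4 with no filter, 7 without the top 5% of cells and 0 without the top cell (245 unadjusted). Leaving out a mouse gave 2 to 19, 1 to 23, 2 to 13 and 5 to 18 genes. For the difference from the other macrophages, DESeq2 gave 0, 0, 1 and 1 genes and limma-voom 0 in each. Without the top 5% of cells N297A gave 2, and without the top cell of each gene GA-aFuc, GITR/Syn GA-aFuc and the Fc-enhanced pair gave 2, 1 and 1. Leaving out a mouse gave 1 to 13, 3 to 12, 2 to 8 and 2 to 9. Of 424 changes of single genes under alternatives, 276 kept their side of the threshold, 86 lost and 62 gained it, and 0 reversed. The cause was not tested.

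The share difference of the Fc-enhanced pair reversed to 0.189 points over all annotated cells and to 0.341 points with the cells outside this library, and leaving out a mouse gave -0.439 to 0.282 points. For N297A leaving out a mouse gave 0.135 to 1.27 points. No paired analysis was possible because the mice of different treatments share no animal and their numbers only follow hashtag order. With 13 to 22 cells a mouse, 1 cell can decide a gene's level.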
